A study of Danio rerio with 12 samples.

Results

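The cell-cycle genes examined here are 7 genes that carry a cell through DNA synthesis and division: pcna (ENSDARG00000054155), mcm5 (ENSDARG00000019507), ccna2 (ENSDARG00000011094), ccnb1 (ENSDARG00000051923), cdk1 (ENSDARG00000087554), top2a (ENSDARG00000024488) and mki67 (ENSDARG00000091150). They were taken by identifier from a list of familiar proliferation genes, and they are 7 of the 32520 genes in the count table. All 7 passed the filter on low counts that kept 19292 genes for testing. The gonads of juvenile zebrafish were dissected one by one, judged to be ovary or testis under a microscope, and sequenced as polyadenylated RNA after amplification of the cDNA. The 12 libraries are 2 ovaries and 4 testes at 25 days post fertilization (dpf) and 3 ovaries and 3 testes at 30 dpf. All fish were of the AB strain and carried Tg(piwil1-egfp-nos3UTR)ihb327Tg, a germ cell reporter in which piwil1 sequence drives green fluorescent protein, so that no group lacks the transgene. Each library is a whole gonad, a mixture of germ cells and somatic cells. The question put to the data is whether these genes differ between juvenile ovary and juvenile testis at the ages when the 2 sexes part.

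A dividing cell first licenses its replication origins by loading the MCM helicase, then copies its DNA with the help of the PCNA clamp, and finally enters mitosis when cyclins switch on the kinase Cdk1. Topoisomerase II alpha untangles the copied chromosomes, and the Ki-67 protein coats them during mitosis. In a juvenile gonad the germline stem and progenitor cells divide in this way, while germ cells in meiosis pass through an S phase and later divide with much of the same machinery. Growing oocytes, which do not divide, are known to store mRNAs of cyclins and other cell-cycle proteins for the meiotic divisions and the first cleavages of the embryo. A bulk measurement cannot tell fewer cells of a type from less RNA per cell.

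The total count per gonad was 4471588 to 5331223. Levels are given as CPM, counts per 1000000 counts of a library size scaled by the trimmed mean of M values (TMM). In these gonads 3 counts, the limit that a count of 0 allows, equal 0.528 to 0.806 CPM, far under every value of the 7 genes. Germ cell markers were present in all gonads, with a summed level of 4144 to 5865 CPM in ovaries and 2142 to 2707 CPM in testes over 7 genes. Of these, 6 were called higher in ovaries over both ages. Among them is nanos3, and the name of the reporter transgene includes nos3UTR. Whether reads of the reporter were counted to nanos3 was not tested. The only marker not called, nanos2, went the other way. In ovaries it was at 0 to 1.78 CPM, close to the level of 3 counts, and in testes at 1.00 to 5.28 CPM (5 to 30 counts). Its log2 fold change was -1.65 (edgeR adjusted p = 0.0651). Of 9 oocyte markers 8 were matched, none of them was at 0 in every testis, and they summed to 4154 to 9598 CPM in ovaries and 284 to 1316 CPM in testes. Among the 8 is org, at 86.9 to 209 CPM in testes, which the study describes as reported in primordial germ cells. The testis sums need not be RNA of oocytes alone. The Sertoli cell markers amh, gsdf and dmrt1 did not set the testes apart from the ovaries at 25 dpf. They then summed to 441 and 673 CPM in the ovaries and 349 to 1402 CPM in the testes. The 30 dpf testes held 1277 to 6392 CPM, most of it gsdf, which was at 1244 to 5187 CPM and at most 1001 CPM in ovaries. The lowest levels of amh and dmrt1 in the 30 dpf testes, 15.5 and 17.3 CPM, lay within the ranges of the ovaries. Leydig cell markers summed to 78.7 to 197 CPM in ovaries and 156 to 1835 CPM in testes. Of these, cyp17a1, cyp11c1 and star were called lower in ovaries over both ages, whereas insl3 went the other way without a call. It was at 2.45 to 6.28 CPM in ovaries and 0.602 to 3.63 CPM in testes (log2 fold change 1.26, edgeR adjusted p = 0.0559). No granulosa cell marker was matched. The 25 dpf testis of replicate 1 held 24586 CPM of skeletal muscle markers, against 298 to 953 CPM in the other testes.

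Ovaries and testes did not differ by a common amount across the cell cycle. Over both ages, 5 of the 7 genes were called higher in ovaries and 1 was called lower by edgeR's quasi-likelihood test. The differences ran from a 7.92-fold higher level of ccnb1 in ovaries to a 1.45-fold lower level of top2a. Among all genes tested, 21.9% were called higher in ovaries and 21.3% lower. The median log2 fold change was 0.49 over the 7 genes and -0.13 over all genes tested. Only ccnb1 was higher in every ovary than in every testis, a pattern found in 12.2% of all genes tested. The reverse pattern, every ovary below every testis, was found in 8.2% of the genes tested and in none of the 7.

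**Figure D1:**
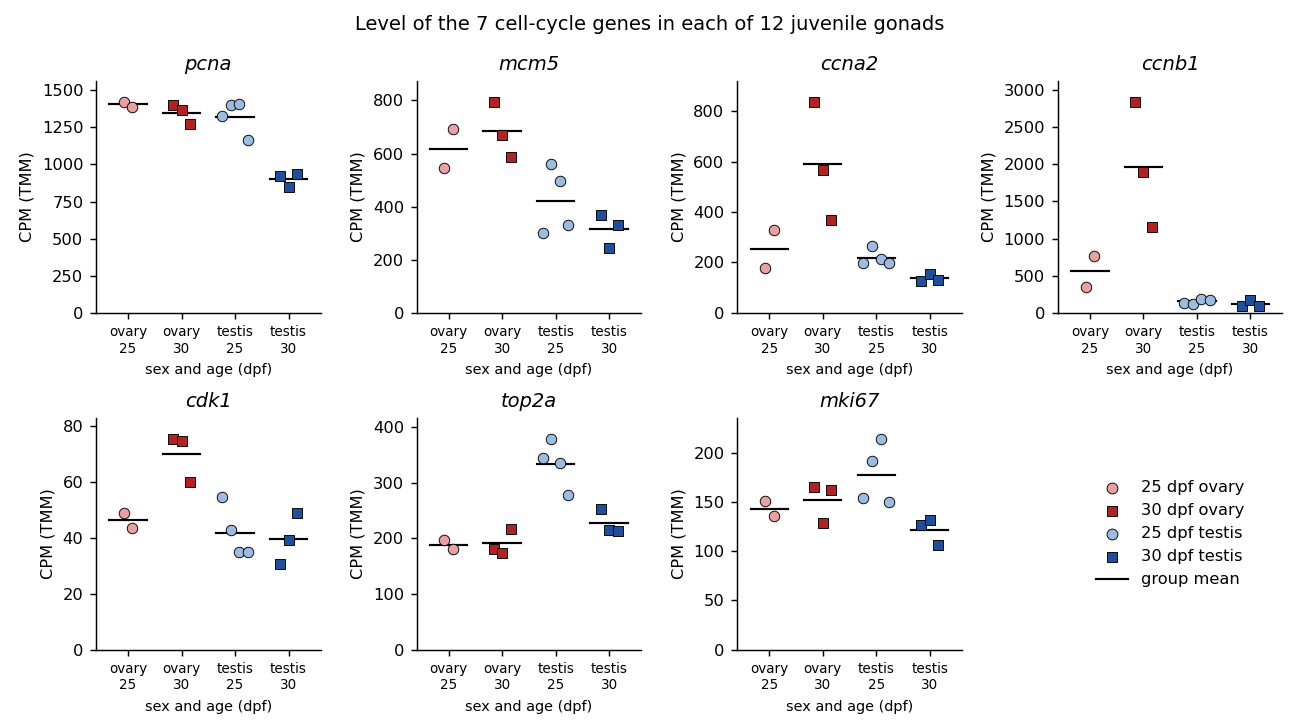
Level of each of the 7 genes, in CPM scaled by TMM on linear axes that start at 0, in the 2 and 3 ovaries and the 4 and 3 testes at 25 and 30 dpf. Each point is 1 gonad and each line a group mean. The ovaries of ccnb1 all lie above its testes, whereas 4 of the 5 ovaries of top2a lie below its lowest testis.

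Both genes of DNA synthesis were modestly higher in ovaries. The sliding clamp gene pcna reached 1420 and 1390 CPM in the 25 dpf ovaries (replicates 1 and 2) and 1400, 1365 and 1272 CPM in the 30 dpf ovaries (replicates 1 to 3). In the testes it was at 1324, 1400, 1406 and 1163 CPM at 25 dpf and at 921, 848 and 934 CPM at 30 dpf. The 25 dpf testes thus overlapped the ovaries, and the 3 testes at 30 dpf stood below all other gonads. Over both ages pcna was 1.26-fold higher in ovaries (log2 fold change 0.33, SE 0.08, edgeR adjusted p = 0.00867), and with upper-quartile scaling this call was lost (log2 fold change 0.19, adjusted p = 0.112).

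The helicase subunit gene mcm5 was at 544 and 694 CPM in the 25 dpf ovaries and at 794, 670 and 588 CPM in the 30 dpf ovaries. Its testes were at 302, 562, 495 and 330 CPM at 25 dpf and at 368, 245 and 330 CPM at 30 dpf. All but 1 of the 5 ovaries exceeded the highest testis, and the exception, a 25 dpf ovary, fell short of it by little. The difference over both ages was 1.79-fold (log2 fold change 0.84, SE 0.18, edgeR adjusted p = 0.00371). The lowest of the 4 testes at 25 dpf was the gonad with the muscle RNA. Without it the log2 fold change of mcm5 over both ages was 0.76 (adjusted p = 0.00503).

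The cyclins held the widest differences. Cyclin A2, which acts from S phase into early mitosis, had 179 and 328 CPM of ccna2 RNA in the 25 dpf ovaries and 836, 565 and 369 CPM in the 30 dpf ovaries. In testes ccna2 was at 197, 263, 215 and 198 CPM at 25 dpf and at 127, 153 and 131 CPM at 30 dpf. The ovary of replicate 1 at 25 dpf lay below the 4 testes of its own age and above the 3 testes at 30 dpf, and the other ovaries lay above all 7 testes. Over both ages ccna2 was 2.24-fold higher in ovaries (log2 fold change 1.16, SE 0.21, edgeR adjusted p = 0.0012).

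Cyclin B1 is the partner with which Cdk1 drives entry into M phase, in mitosis and in the maturing oocyte. The ovaries held 349 and 765 CPM of ccnb1 at 25 dpf and 2838, 1893 and 1157 CPM at 30 dpf. The testes held 136, 125, 182 and 171 CPM at 25 dpf and 86.3, 166 and 88.0 CPM at 30 dpf. The lowest ovary was 1.92-fold above the highest testis, and the ovaries themselves differed widely from each other (coefficient of variation 70.3% in 5 ovaries and 28.6% in 7 testes). The log2 fold change over both ages was 2.99 (SE 0.28, edgeR adjusted p = 4.19e-05).

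The kinase gene itself differed far less than its cyclins. The ovaries held 49.0 and 43.7 CPM of cdk1 at 25 dpf and 75.5, 74.9 and 60.2 CPM at 30 dpf. The testes held 54.5, 42.8, 35.0 and 34.8 CPM at 25 dpf and 30.5, 39.2 and 49.0 CPM at 30 dpf. The 3 ovaries at 30 dpf exceeded every testis, and the 2 at 25 dpf lay within the range of the testes. Over both ages cdk1 was 1.40-fold higher in ovaries (log2 fold change 0.49, SE 0.16, edgeR adjusted p = 0.0326). The call was lost with upper-quartile scaling (adjusted p = 0.114) and with the replicate number as a block in the model (adjusted p = 0.108). It was also lost when any of 7 gonads was left out (adjusted p of 0.0538 to 0.0894). These were either 25 dpf ovary, the 30 dpf ovary of replicate 1 or 2, the 25 dpf testis of replicate 4 and the 30 dpf testis of replicate 1 or 2.

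The genes of chromosome structure did not follow the cyclins. The ovaries held 197 and 180 CPM of top2a at 25 dpf and 181, 175 and 217 CPM at 30 dpf. The testes held 344, 379, 337 and 277 CPM at 25 dpf and 252, 216 and 213 CPM at 30 dpf. All ovaries but the 30 dpf ovary of replicate 3 lay below the lowest testis. Over both ages top2a was 1.45-fold lower in ovaries (log2 fold change -0.54, SE 0.11, edgeR adjusted p = 0.00332).

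The proliferation marker gene mki67 was at 151 and 135 CPM in the 25 dpf ovaries and at 165, 128 and 162 CPM in the 30 dpf ovaries. The testes were at 154, 192, 214 and 150 CPM at 25 dpf and at 126, 132 and 106 CPM at 30 dpf. The ranges of both sexes overlapped, with the highest and the lowest value in testes. The log2 fold change over both ages was 0.0043 (SE 0.13, edgeR adjusted p = 0.982), and its sign turned under several other settings.

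The sex difference was looked at within each age, with 2 ovaries against 4 testes at 25 dpf and 3 against 3 at 30 dpf. At 25 dpf, ccnb1 was called higher in ovaries (3.63-fold, log2 fold change 1.86, SE 0.38, edgeR adjusted p = 0.0128) and top2a lower (log2 fold change -0.83, SE 0.17, edgeR adjusted p = 0.0128). That is 1 of 7 genes higher and 1 lower, where 8.64% of all genes tested were called higher and 4.59% lower. Each of the 2 calls rests on 2 ovaries. Without the ovary of replicate 2, the log2 fold change of ccnb1 was 1.23 (adjusted p = 0.176) and that of top2a -0.72 (adjusted p = 0.153), and without the ovary of replicate 1 that of top2a was -0.86 (adjusted p = 0.0579). The other 5 genes had log2 fold changes between -0.31 for mki67 and 0.55 for mcm5, none past the threshold.

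At 30 dpf, 5 of the 7 genes were called higher in ovaries and none lower, where 18.7% of all genes tested were called higher and 16.5% lower. With upper-quartile scaling, which moved the median gene at 30 dpf by -0.18, the calls over all genes were 2971 higher and 4069 lower in place of 3601 and 3188. The level of ccnb1 was 17.3-fold higher in ovaries (log2 fold change 4.11, SE 0.43, edgeR adjusted p = 0.000197), and that of ccna2 4.31-fold higher (log2 fold change 2.11, SE 0.30, adjusted p = 0.000551). The log2 fold changes of mcm5 (1.12, SE 0.26), cdk1 (0.83, SE 0.23) and pcna (0.58, SE 0.12) had adjusted p of 0.00647, 0.0167 and 0.00347, and that of cdk1 lost its call without the ovary of replicate 1 or 2 or the testis of replicate 1 (adjusted p of 0.0559 to 0.0603) and with upper-quartile scaling (0.05001). For these 5 genes the 3 ovaries at 30 dpf all lay above the 3 testes of that age. How many of all genes tested show that pattern at 30 dpf was not counted, so it does not set these 5 apart. The log2 fold changes of mki67 (0.32, SE 0.18, adjusted p = 0.179) and top2a (-0.25, SE 0.15, adjusted p = 0.235) did not pass.

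**Figure D2:**
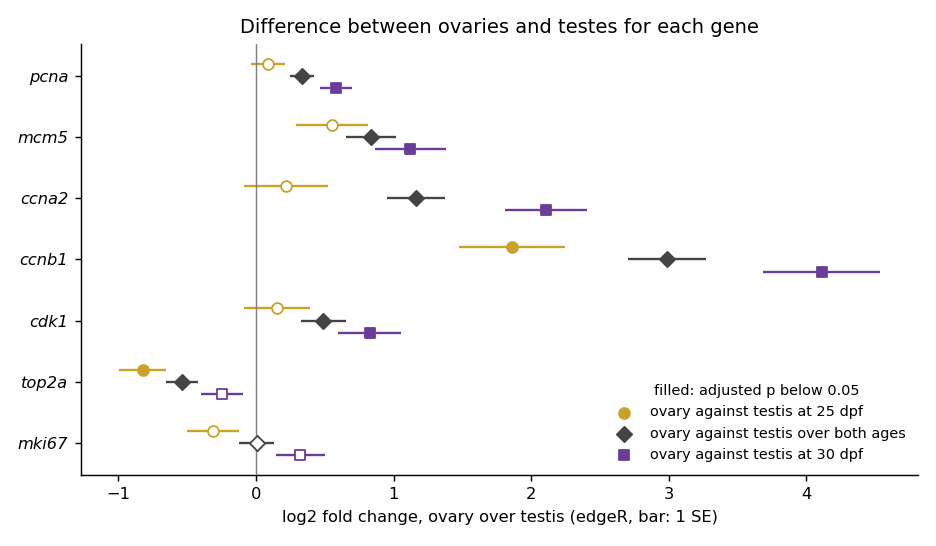
Log2 fold change of ovary over testis for the 7 genes from edgeR, at 25 dpf (circles), at 30 dpf (squares) and over both ages (diamonds), with bars of 1 SE. Filled symbols have an adjusted p under 0.05. For every gene the 30 dpf estimate lies to the right of the 25 dpf estimate, from a difference of 0.49 for pcna to 2.25 for ccnb1, and none of these differences passed edgeR's test.

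A gene past the threshold at 1 age and not at the other need not differ between the ages, so the change of the sex difference between the ages was tested in the same model. The estimates were positive for all 7 genes, that is, further toward the ovary at 30 dpf, with log2 values of 2.25 for ccnb1 (SE 0.57), 1.89 for ccna2 (SE 0.43), 0.68 for cdk1, 0.63 for mki67, 0.58 for top2a, 0.57 for mcm5 and 0.49 for pcna. None of the 7 and 0% of all genes tested were called by edgeR, whose lowest adjusted p among the 7 was 0.386. At an unadjusted p under 0.05 the counts were 5 of 7 genes and 1952 of 19292. DESeq2 called ccna2 (adjusted p = 0.0178) and ccnb1 (adjusted p = 0.0253), among 89 genes in all, 0.461% of those tested. The 2 ages were measured in different fish, and the 7 estimates come from the same 12 gonads.

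The comparison of ages within a sex uses those gonads again. In ovaries, the log2 fold change of 30 over 25 dpf was 1.82 for ccnb1 (SE 0.45) and 1.22 for ccna2 (SE 0.34), each with an edgeR adjusted p of 0.31. It was 0.60 for cdk1 and lay between -0.06 and 0.14 for the other 4. None of the 7 genes was called, as in 0% of all genes tested, and the counts at an unadjusted p under 0.05 were 3 of 7 genes and 2215 of 19292. DESeq2 called ccnb1 (adjusted p = 0.00836) and ccna2 (adjusted p = 0.0353), among 190 genes in all, 0.985% of those tested. For ccnb1, ccna2 and cdk1 each 30 dpf ovary exceeded each 25 dpf ovary, and for pcna, mcm5, top2a and mki67 the ages overlapped. How many of all genes separate in this way between 3 and 2 ovaries was not counted.

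In testes all 7 estimates were negative, from -0.67 for ccna2 (SE 0.27) to -0.08 for cdk1 (SE 0.21). The value for pcna was -0.55 (SE 0.11, edgeR adjusted p = 0.15), and those for top2a and mki67 were -0.56 and -0.55. No member was called by edgeR, against 0.00518% of all genes tested, which is 1 gene, and the counts at an unadjusted p under 0.05 were 4 of 7 genes and 2514 of 19292. DESeq2 called pcna (adjusted p = 0.0019) and top2a (adjusted p = 0.0354) lower at 30 dpf, among 371 genes called in either direction, 1.92% of those tested. The 3 testes at 30 dpf were below the 4 testes at 25 dpf for pcna, mki67, ccna2 and top2a. For ccnb1, mcm5 and cdk1 the ages overlapped. The share of all genes with such a separation was not counted, so it does not set these genes apart.

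Because the scaling of a library cancels in a ratio of 2 genes from the same gonad, the balance between the members was also described by log2 ratios, with 0.5 CPM added to each level. The ratio of ccnb1 to cdk1 was 2.82 and 4.11 in the 25 dpf ovaries and 5.22, 4.65 and 4.25 in the 30 dpf ovaries, against 0.84 to 2.36 with a median of 1.53 in the 7 testes. The sexes did not overlap, and the mean difference over both ages was 2.42 (pooled SD 0.60). For ccna2 to cdk1 the ranges overlapped, with 1.86 to 3.46 in ovaries and 1.41 to 2.61 in testes. The difference between the sexes in this ratio was -0.01 at 25 dpf and 1.19 at 30 dpf. The ccnb1 ratio thus parted the sexes at both ages, as the level of ccnb1 did by itself. The ccna2 ratio did so at 30 dpf alone, where every ovary exceeded every testis.

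The ratio of top2a to mki67, 2 genes read as proliferation markers, parted the sexes as well. It was 0.14 to 0.44 in the 5 ovaries and 0.65 to 1.15 in the 7 testes, with no overlap and little change with age (means of 0.40 and 0.33 in ovaries and 0.92 and 0.90 in testes at 25 and 30 dpf). How many pairs of all genes tested part the sexes in this way was not counted. The lack of overlap thus does not set this ratio or that of ccnb1 to cdk1 apart. The ratio of pcna to mcm5 was 0.82 to 1.38 in ovaries and 1.31 to 2.13 in testes and overlapped. A score set the mean of the 5 genes of mitosis and chromosomes (ccnb1, ccna2, cdk1, top2a, mki67) against the mean of pcna and mcm5. With the ages pooled it overlapped too, at -2.49 to -1.58 in ovaries and -2.52 to -1.88 in testes. The difference between the sexes was -0.14 at 25 dpf and 0.55 at 30 dpf, where every ovary exceeded every testis. The score hung on ccnb1: over both ages the difference was 0.20 with it and -0.33 without it.

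**Figure D3:**
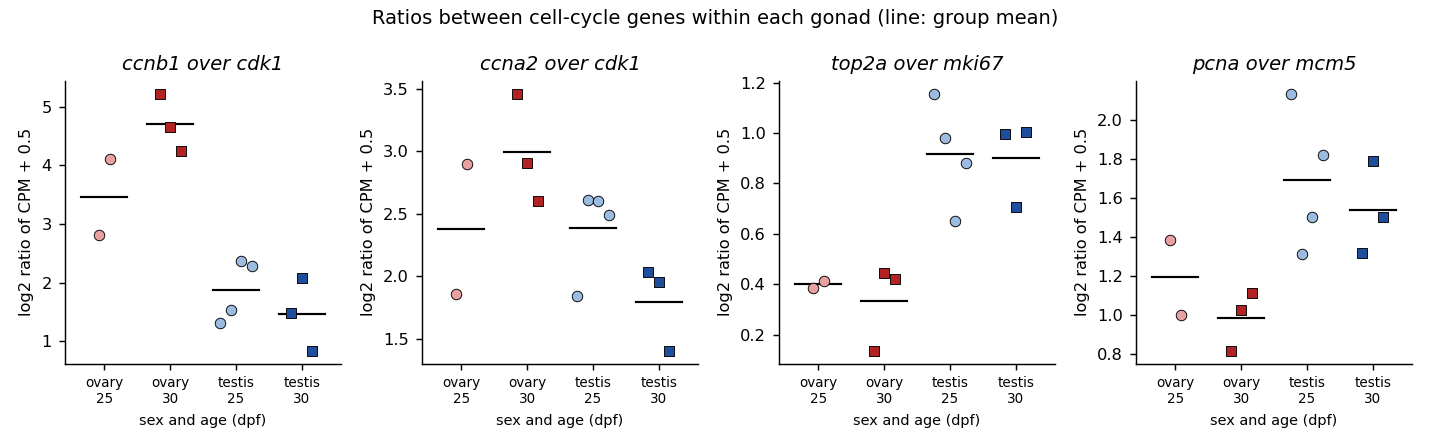
Log2 ratios of 4 pairs of members within each gonad (0.5 CPM added to each level), by sex and age, with 1 point per gonad and a line at each group mean. The ratios of ccnb1 to cdk1 and of top2a to mki67 do not overlap between ovaries and testes, and the other pairs do.

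The members were also set against ddx4, which encodes the germ cell RNA helicase Vasa and was itself higher in ovaries (474 to 809 CPM against 277 to 408 CPM in testes, edgeR log2 fold change 0.91). Per unit of ddx4, ccnb1 remained higher in ovaries, at -0.44 and 0.35 at 25 dpf and 1.87, 1.73 and 0.52 at 30 dpf on the log2 scale, against -2.21 to -0.60 in testes. The ratio of top2a to ddx4 was -2.096 to -1.26 in ovaries and -0.94 to 0.28 in testes, again without overlap. Setting a gene against ddx4 moves it toward the testes by the sex difference of ddx4 itself. Without that step the levels of top2a overlapped between the sexes. The share of all genes that part relative to ddx4 was not counted. With the ages pooled, the sexes overlapped for the other 5. Their mean differences were 0.19 for ccna2, -0.05 for mcm5, -0.41 for cdk1, -0.57 for pcna and -0.90 for mki67. The value for ccna2 averages opposite differences, -0.57 at 25 dpf and 0.94 at 30 dpf. At 25 dpf both ovaries lay below all 4 testes for ccna2, pcna, mki67 and cdk1, and at 30 dpf the ovaries lay below the testes for mki67. In the library as a whole the differences of pcna and mki67 had been 0.33 and 0.0043.

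By the order of the gonads, the summed oocyte markers went with both cyclins in the 5 ovaries and largely with ccnb1 in the 7 testes. Among testes ccna2 followed the sums in the 3 gonads at 30 dpf but not in the 4 at 25 dpf. How many of all genes show such orders was not counted, so the orders do not set the cyclins apart. The summed oocyte markers were at 4154 and 5266 CPM in the 25 dpf ovaries and at 9334, 9598 and 6582 CPM in the 30 dpf ovaries. Ordered by these sums, the 5 ovaries fall in the order of their ccnb1 and ccna2 levels, save that the highest and the next change places. Both 25 dpf ovaries are lowest in the sums and in both cyclins, so this order is not separate from age. The testes with the 3 highest sums, 1316 and 788 CPM at 25 dpf (replicates 4 and 3) and 806 CPM at 30 dpf (replicate 2), also held the 3 highest ccnb1 levels among testes. The highest ccna2 level of the testes, 263 CPM, stood in the testis with the lowest sum, 284 CPM, and the testis with the highest sum held 198 CPM. Both were 25 dpf testes. The 30 dpf testes of replicates 1, 3 and 2 had sums of 297, 316 and 806 CPM. They held 127, 131 and 153 CPM of ccna2. Within a sex top2a followed no clear order of the sums. The ovaries with the highest sums held 175 and 181 CPM, but the highest top2a of the ovaries, 217 CPM, went with the middle sum, and the testes with sums of 284, 316 and 1316 CPM held 379, 213 and 277 CPM. The part of oocyte RNA in the sex differences was not tested, and since all 8 oocyte markers were called higher in ovaries, the 2 cannot be told apart. The 12 meiotic markers overlapped, at 399 to 944 CPM in ovaries and 662 to 977 CPM in testes.

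**Figure D4:**
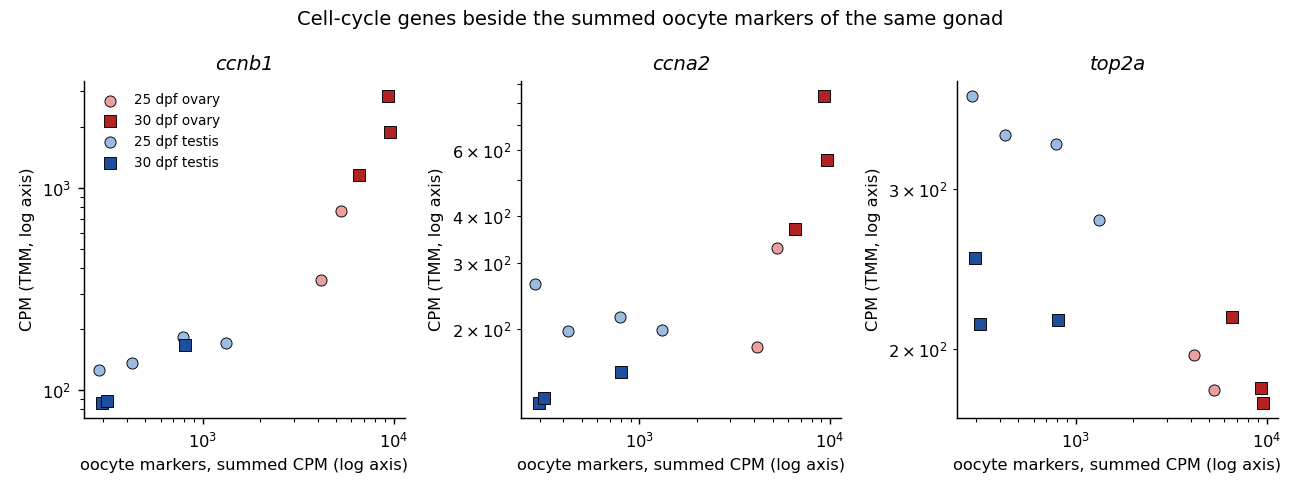
Level of ccnb1, ccna2 and top2a (CPM scaled by TMM, log axis) against the summed level of 8 oocyte markers in the same gonad (CPM, log axis), with 1 point for each of the 12 gonads. The ovaries, at 4154 CPM of oocyte markers and above, span 349 to 2838 CPM of ccnb1, and the testes, at 1316 CPM and below, span 86.3 to 182 CPM.

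Across the 12 gonads the members did not form a single profile. The Pearson r of each gene with the mean of the other 6, on log2(CPM + 1), was 0.83 for pcna, 0.81 for ccna2, 0.76 for mcm5, 0.63 for ccnb1, 0.49 for cdk1 and 0.46 for mki67, and it was -0.27 for top2a. The 2 cyclins went together most closely (r = 0.92), and r was 0.80 for their deviations from the group means, which do not carry the sex difference. The pair ccnb1 and top2a had r = -0.67 and -0.61 in the same 2 measures, whereas pcna and mcm5 had 0.76 and 0.72. These values describe 12 gonads that share sex and age, and they include gonads with more and with less oocyte RNA.

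The gene most like the mean profile of the 7 was the replication helicase gene cdc45 (r = 0.98). Next came the ribonucleotide reductase subunit gene rrm1 (r = 0.97) and the histone methyltransferase gene suv39h1 (r = 0.95). They were followed by mia2 (r = 0.95) and the histone chaperone gene asf1b (r = 0.93). All 5 were called higher in ovaries, with log2 fold changes of 0.37 to 0.82. Likeness was taken over the same 12 gonads with the sex difference included, so these calls partly follow from the choice of genes. The nearest profile to ccnb1 was that of its paralog ccnb2 (r = 0.997), and the nearest to ccna2 was tpx2, a spindle assembly factor (r = 0.99). For top2a the nearest were nradd (r = 0.96), tgif1 (r = 0.95) and slc35f3 (r = 0.94), none of them on the cell-cycle lists. All 3 were called lower in ovaries, which the choice by likeness to top2a favours in the same way. The levels of nradd were close to that of 3 counts, at 0.395 to 1.16 CPM in ovaries and up to 4.75 CPM in testes. The nearest to mki67 was the nuclear export receptor gene xpo1a, at r = 0.85.

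A wider set of cell-cycle genes was grouped by role into 7 lists, in which 151 of 170 symbols were matched to 154 identifiers, 147 of them other than the members. Of 146 tested, 73 were called higher and 18 lower in ovaries over both ages (21.9% and 21.3% of all genes tested), with a median log2 fold change of 0.44 beside -0.13 for all genes. Counted with the members, the 19 lower calls became 11 without the 25 dpf ovary of replicate 1 and 9 without that of replicate 2. At 25 dpf 19 were called higher and 6 lower, beside 8.64% and 4.59% of all genes, and at 30 dpf 68 and 10, beside 18.7% and 16.5%. The lower calls at 25 dpf are thus no more frequent than among all genes. The median dependence on age was 0.55, beside 0.05 for all genes, and no gene of the lists was called for it. Every ovary exceeded every testis for 31 of the 146, beside 12.2% of all genes, and every ovary was below every testis for 6, beside 8.2%.

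The mitotic kinases and the spindle checkpoint leaned furthest toward the ovary. Of 15 genes, 12 were called higher and none lower, with a median log2 fold change of 1.04, beside 21.9% and 21.3% of all genes tested. Among them nek2, a centrosome kinase, was at 132 to 425 CPM in ovaries and 14.8 to 32.4 CPM in testes (log2 fold change 3.28, SE 0.26, edgeR adjusted p = 3.28e-05). The mitotic kinase gene aurka was at 247 to 846 CPM against 54.6 to 106 CPM (log2 fold change 2.52), and sgo1, the protector of sister chromatid cohesion, at 80.3 to 134 CPM against 21.9 to 44.3 CPM (log2 fold change 1.81). In the spindle, kinetochore and cytokinesis list 18 of 26 genes were called higher and 1 lower (median 0.60). There cdca8, a subunit of the chromosomal passenger complex, had a log2 fold change of 1.35, and the kinetochore gene cenpf, the 1 called lower over both ages, of -1.02. At 25 dpf 0 of the 26 genes were called higher and 2 lower, beside 8.64% and 4.59% of all genes tested. At 30 dpf 18 were called higher and 1 lower, beside 18.7% and 16.5%.

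Of 14 cyclins, kinases and Cks subunits other than the members, 7 were called higher and 1 lower (median 0.49). Among all genes tested the shares were 21.9% and 21.3%. The widest difference of all the lists was that of ccna1, the germline cyclin A in mouse, with 842 to 3700 CPM in ovaries and 18.4 to 191 CPM in testes (log2 fold change 4.81, SE 0.72, edgeR adjusted p = 0.000401). The log2 ratio of ccna1 to ccna2 was 2.15 to 2.58 in all 5 ovaries. In testes it was -3.62 to -2.12 in 5 gonads and -0.20 and 0.32 in the other 2, the testes with the highest and the next highest oocyte sums. The paralog ccnb2 behaved much as ccnb1 did (141 to 975 CPM against 31.5 to 64.2 CPM, log2 fold change 3.16). The Cks subunit gene cks2 (ENSDARG00000117089) had a log2 fold change of 2.05. A second identifier of that name, ENSDARG00000071410, was at 0.262 to 3.26 CPM in ovaries and 0.807 to 6.08 CPM in testes. It was not called (log2 fold change -0.43, edgeR adjusted p = 0.593).

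The regulators of the kinases went both ways, with 9 of 28 called higher, 7 lower and a median of 0.18, shares not far from the 21.9% and 21.3% of all genes. Genes that act on the anaphase-promoting complex also went both ways: fbxo5, which encodes its inhibitor Emi1, had a log2 fold change of 2.58 and cdc20, an activator, of 1.64, whereas fzr1b, a gene of its other activator Cdh1, named after its values had been seen, was called lower (-0.83, edgeR adjusted p = 0.0335). Among the lower ones were lin54, a subunit of the DREAM complex that represses cell-cycle genes (log2 fold change -0.97), and the pocket protein gene rbl1 (-0.80), and for each the ovaries did not overlap the testes. In the chromosome structure list, 1 of 12 genes other than top2a and mki67 was called higher and 4 lower (median -0.06). Like top2a, its paralog top2b was lower in ovaries (35.6 to 53.7 CPM against 65.4 to 116 CPM in testes, log2 fold change -0.97), as were the cohesin genes rad21a (-0.50) and smc3 (-0.35, edgeR adjusted p = 0.0441), the last of them a call that 14 of 19 alternatives lost. The remaining lower gene, ncapg of the condensin complex, was picked out after its values had been seen, with 2.31 to 9.95 CPM in ovaries and 1.61 to 173 CPM in testes, which overlapped (log2 fold change -3.05, SE 0.90, edgeR adjusted p = 0.0175).

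On the side of DNA synthesis, 12 of 21 genes of origin licensing and the helicase were called higher and 3 lower (median 0.61). In the list of the replication fork and of nucleotide supply, 14 of 30 genes were called higher and 2 lower (median 0.34). The shares over all genes tested were 21.9% higher and 21.3% lower. The licensing factor gene cdt1 had a log2 fold change of 2.1, orc6 of the origin recognition complex 1.99 and mcm10 1.33. Other genes of that complex went both ways, and they were picked out after their values had been seen. Called higher were orc2 (0.95), orc3 (1.13) and orc4 (0.42). Called lower was orc1 (-3.37, edgeR adjusted p = 0.00917), at 0.926 to 4.57 CPM in ovaries and 1.61 to 42.1 CPM in testes, which overlapped. The other subunits of the helicase ring to which mcm5 belongs were picked out after their values had been seen. They differed from mcm5 and from each other, with log2 fold changes of 0.61 for mcm4 (edgeR adjusted p = 0.00484), 0.24 for mcm7 and 0.07 for mcm2, neither past the threshold, and -0.74 for mcm3 (adjusted p = 0.0442). The name mcm6 is carried by 2 identifiers that were called in opposite directions, ENSDARG00000057683 at 106 to 299 CPM in ovaries and 268 to 563 CPM in testes (log2 fold change -1.06, adjusted p = 0.00424), and ENSDARG00000033231 at 4.08 to 111 CPM and 2.21 to 29.1 CPM (log2 fold change 2.24, adjusted p = 0.0285). The values of such copies are uncertain where they share sequence.

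**Figure D5:**
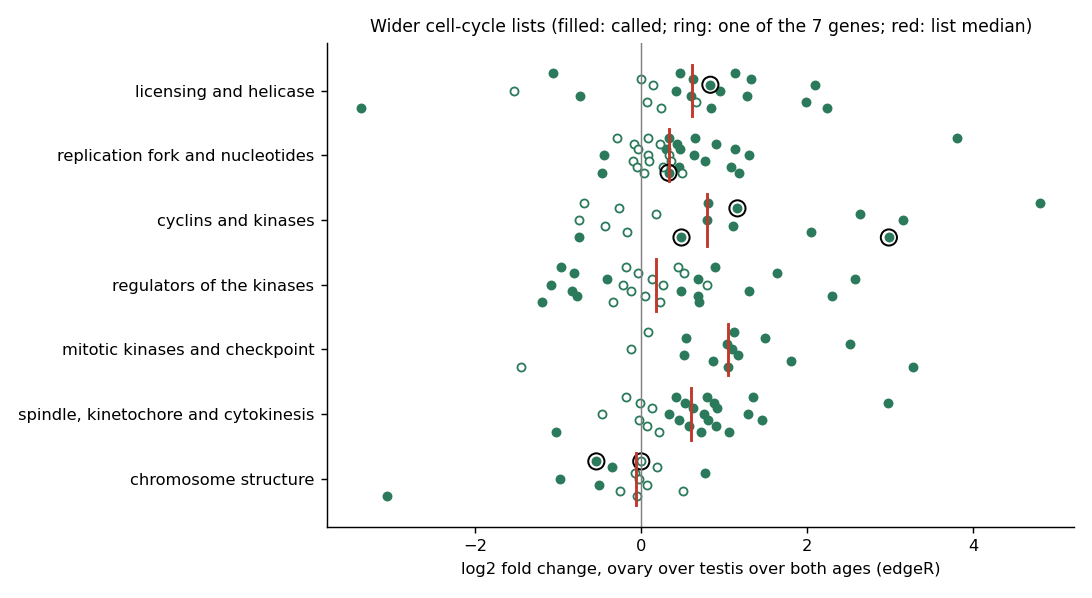
Log2 fold change of ovary over testis over both ages (edgeR) for the tested genes of 7 cell-cycle lists, with 1 point per gene, spread vertically only to part the points. Filled points were called at an adjusted p under 0.05, rings mark the 7 genes, and the red line is the median of each list with the ringed genes included. The list of mitotic kinases has its median at 1.04 and that of chromosome structure at -0.06.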

How the data were processed

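Counts of polyadenylated RNA from 12 single gonads were used. RNA was amplified as cDNA (Discover-sc WTA Kit) before library construction, which can alter relative levels. The authors mapped reads with HISAT2 2.0.5 to GRCz11, removed duplicates with Picard, and counted exonic reads per gene with HTSeq 0.9.1 in reverse-stranded mode, and deposited raw counts. Columns of the table carry a size word, an age and a number. Following the study's account of wildtype juveniles, a big gonad was read as an ovary and a small gonad as a testis, and the number as the replicate number of the labels, although neither is stated for the table. Nothing states that gonads came from separate clutches, so p-values measure the spread between these gonads.

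The test was that of edgeR 4.0.16, run on the counts under R 4.3.3 (filterByExpr, TMM, quasi-likelihood test, 1 mean per group in 1 model of all 12 gonads, Benjamini-Hochberg over 19292 genes, threshold 0.05), because the 25 dpf ovaries number 2. "Called" means an adjusted p under 0.05. Each SE is the absolute fold change (log2) over the root of its F statistic. DESeq2 1.42.0 was an alternative, beside other scalings and filters, a robust fit, fewer groups, a replicate block and leaving out each gonad. The code was tested on simulated data. Symbols were matched for 29201 of 32520 identifiers. The 7 genes, the lists and the tests were chosen with earlier results of these data known. By rule, non-members were named when called without overlap of the sexes (up to 12 a direction, by size of change) or for likeness to the 7. Other genes were named as cell type markers, as second identifiers of a name or, where marked, after their values had been seen. Floors cover counting error only. Levels were not compared between genes, since gene lengths were not used. Promoter and protein sequences were not analysed here.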

Additional observations from a re-analysis of the deposited data

Results flagged for a closer look

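In the 4 testes at 25 dpf, 29 measures were examined for a gonad that stands far from the others (the gap to its nearest neighbour over the whole range, against Dixon's critical value for 4 values), and chance alone marks about 1 in 20 such groups. The log2 ratio of ccna2 to cdk1 was 1.84 in replicate 1 and 2.61, 2.60 and 2.49 in replicates 2, 3 and 4, with a gap of 0.852 of the range. In the same replicate the skeletal muscle markers summed to 24586 CPM, against 953, 298 and 501 CPM in the others, with a gap of 0.973. That gonad had the highest cdk1 level of the testes, 54.5 CPM. Without it the log2 fold change over both ages was 0.56 for cdk1 (edgeR adjusted p = 0.0147), and the part of muscle RNA in these values was not tested.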

How the results depend on the processing

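Of 1511 values recomputed under alternatives, 1440 kept their direction and their side of the threshold (counts within 1.5-fold). DESeq2 called 2 of the 7 genes for a sex difference that changes with age, 2 for age in ovaries and 2 for age in testes, where edgeR called 0 of each. Upper-quartile scaling shifted the median gene by -0.14 over both ages and left 3 of the 7 called higher in ovaries, ccnb1, ccna2 and mcm5, in place of 5. The calls over all genes became 3530 higher and 5057 lower in place of 4223 and 4108. Relative to the median gene, pcna was at 0.46 under either scaling and cdk1 at 0.62 and 0.61. This scaling also turned the log2 fold change of mki67 over both ages to -0.13, that of pcna at 25 dpf to -0.0164 and that of top2a between ages in ovaries to -0.0419. The mki67 value became -0.0310 with at least 10 counts in every gonad, and the top2a value -0.00924 with only the groups compared. The score of mitosis against replication became -0.33 without ccnb1 and 0.51 with mcm2 to mcm7 and pcna as the replication side, and mcm5 relative to dazl in place of ddx4 was 0.20. The causes were not tested.

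When each gonad was left out in turn, 4 to 5 genes were called higher and 1 lower over both ages, 0 to 1 higher and 0 to 1 lower at 25 dpf, and 4 to 5 higher and 0 lower at 30 dpf. The wider lists, members included, had 66 to 77 genes higher and 9 to 22 lower. The log2 fold change ranged from -0.0411 to 0.0843 for mki67 over both ages, from -0.25 to 0.63 for ccna2 at 25 dpf, from -0.11 to 0.11 for top2a between ages in ovaries and from -0.26 to 0.0831 for cdk1 between ages in testes. The difference of mcm5 relative to ddx4 ranged from -0.13 to 0.0695, and that of the score from 0.14 to 0.30.

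Gonads with the same replicate number did not deviate together on average (mean correlation -0.0034 over 15 pairs, -0.24 to 0.14). This cannot exclude a pairing. The numbers were only read as replicate numbers, and deviations from the means of few gonads are not independent. With a replicate block, 4 of the 7 genes were called higher and 1 lower over both ages, 0 higher at 25 dpf, and mki67 over both ages was at -0.0238. All 7 genes stand far above the floor of counts. The 25 dpf ovaries number 2, and leaving out either of them ended a call at that age.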
